A study of Mus musculus with 8 samples.

Results

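The fatty acid elongases and desaturases of mouse liver were followed across 4 groups of RNA-seq libraries. The genes were taken by symbol from the count files: the elongases *Elovl1*, *Elovl2*, *Elovl3*, *Elovl5* and *Elovl6*, the Fads desaturases *Fads1*, *Fads2* and *Fads6*, and the stearoyl-CoA desaturases *Scd1* and *Scd2*. These are 10 of the 23337 gene symbols in the files, and all 10 were among the 14328 genes with enough counts to be tested. The study compared WT mice with HRD1Alb mice, in which the ubiquitin ligase gene HRD1 is deleted in the liver, to learn how loss of HRD1 alters hepatic metabolism in the fasted and the fed state. All mice were C57BL/6 and 12 weeks old. The WT fasted and HRD1Alb fasted groups went without food overnight, and the WT refed and HRD1Alb refed groups were fasted overnight and then fed again for 4 h. HRD1Alb mice (genotype Hrd1-/- in the labels) carry a floxed HRD1 gene and a Cre transgene under the albumin promoter, which is active in hepatocytes from early liver development. Which other liver cells keep the gene was not tested. Each group has 2 libraries, 8 in all, and the labels do not give the sex of the mice.

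Long fatty acids are built in the endoplasmic reticulum by a cycle in which an Elovl enzyme joins an activated fatty acid to malonyl-CoA and partner enzymes reduce and dehydrate the product. *Elovl6* extends palmitate to stearate, *Scd1* and *Scd2* put the first double bond into stearate and palmitate, *Elovl1* and *Elovl3* make very long saturated and monounsaturated chains, and *Elovl2*, *Elovl5*, *Fads1* and *Fads2* turn the dietary essential fatty acids into arachidonic and docosahexaenoic acid. In liver several of these genes are known targets of SREBP-1c, LXR and PPARα, and *Elovl3* is known to differ between male and female mouse liver and over the day.

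The libraries held 40210576 to 49117080 counts and 15935 to 16670 detected genes. Values are given as CPM, counts scaled to a fixed library size, after TMM scaling, a normalization for the make-up of each library, and differences as log2 fold changes with the standard error (SE) of edgeR's quasi-likelihood test, its p adjusted over all tested genes by the Benjamini-Hochberg method. A gene is said to have risen or fallen where this adjusted p was under 0.05. Counts at an unadjusted p under 0.05 are given without the share of all tested genes at that threshold. They therefore do not show more differences than among genes at large. At these depths 3 counts correspond to 0.0611 to 0.0746 CPM before TMM scaling, and the members had between 157 and 106744 counts in a library, so none was near this floor. The deleted gene, listed as *Syvn1*, was at 111 and 99.8 CPM in the WT fasted libraries and at 32.6 and 31.5 CPM in the libraries labelled HRD1Alb fasted. After refeeding it was at 637 and 305 CPM in WT and at 453 and 132 CPM in the libraries labelled HRD1Alb, so the refed groups overlapped and replicate 1 of the latter went against its label. The counts cover the whole gene and do not separate deleted from remaining exons, so they check the label only in part, and every genotype difference below is drawn from the labels. The 2 libraries labelled HRD1Alb refed also stood apart from each other, with 3204 genes more than 2-fold apart, against 424 to 1141 in the other 3 groups. Longer transcripts tended to be lower in replicate 2 than in replicate 1 (log ratio against length, Spearman rho = -0.592 across 12941 genes, which are not independent replicates, against -0.113 to 0.0356 in the other groups). Results that rest on them are therefore also given without each of them.

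In WT liver the 10 genes spanned a wide range of levels. Between genes, levels are compared as CPM per kb of 1 annotated transcript. In WT fasted liver *Elovl5* stood highest at 628 ± 84.0 CPM per kb (SD, n = 2), above *Scd1* at 418 ± 169 and *Elovl2* at 366 ± 72.0, whose libraries overlapped. *Elovl3* followed at 208 ± 132 and overlapped with *Fads1* at 124 ± 9.21, and *Fads2* was at 113 ± 0.694 CPM per kb. *Elovl1* (19.4 ± 0.819), *Elovl6* (7.79 ± 0.728), *Fads6* (5.88 ± 0.296) and *Scd2* (0.992 ± 0.388 CPM per kb) came last, each clear of the next. In WT refed liver *Scd1* led at 471 ± 30.4 CPM per kb, clear of *Elovl5* at 291 ± 26.9, and *Elovl2* was at 220 ± 8.05. In the libraries labelled HRD1Alb refed the order was *Elovl5* (126 ± 1.75), *Elovl2* (93.4 ± 3.06) and *Fads1* (72.5 ± 12.1 CPM per kb), and *Scd1* at 41.1 ± 12.4 overlapped with *Elovl1* at 43.9 ± 9.86 and *Fads2* at 39.2 ± 0.455. The plot of CPM by gene shows all 8 libraries.

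**Figure D1:**
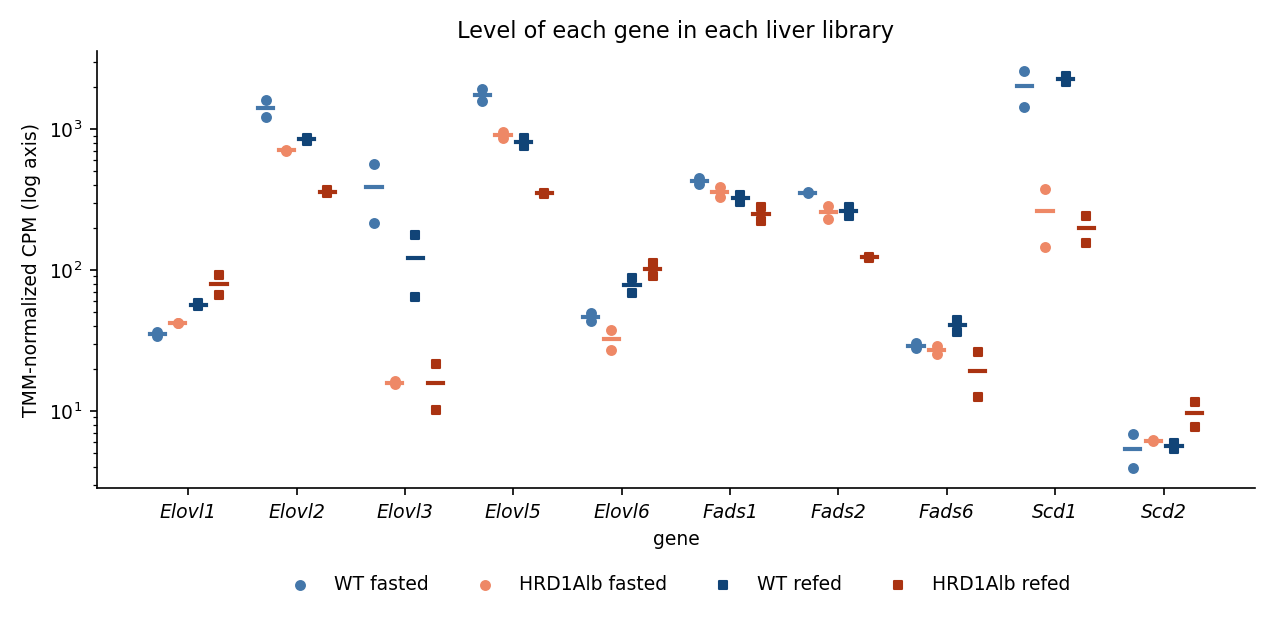
Level of each of the 10 genes in each library, as TMM-normalized CPM on a log axis, with points for libraries (circles fasted, squares refed, blue WT, red HRD1Alb as labelled) and bars for group means. *Scd1* and *Elovl3* show the widest separation between genotypes, *Elovl2* and *Elovl5* step down with both refeeding and the HRD1Alb label, and *Scd2* lies lowest throughout, between 3.92 and 11.6 CPM.

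*Scd1* and *Scd2* encode close copies of the same enzyme and lie near each other on chromosome 19 of GRCm38, *Scd1* at chr19:44394455-44407879 on the minus strand and *Scd2* at chr19:44293674-44306864 on the plus strand. Over their coding sequences of 1065 and 1074 bases they were identical at 89.6% of aligned positions, with a longest identical run of 147 bases. The stretch around that run is shown because reads that fall within it cannot be assigned to 1 of the 2 genes. It covers coding bases 503 to 689 of *Scd1* and 512 to 698 of *Scd2* (genomic span chr19:44400321-44401825 on the minus strand and chr19:44299682-44301265 on the plus strand, each across 2 coding exons with the intron left out), and the 2 differing bases are in capitals.
Scd1: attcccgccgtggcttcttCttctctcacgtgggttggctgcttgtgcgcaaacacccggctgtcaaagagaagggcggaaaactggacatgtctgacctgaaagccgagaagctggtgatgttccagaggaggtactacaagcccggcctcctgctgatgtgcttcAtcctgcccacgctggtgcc
Scd2: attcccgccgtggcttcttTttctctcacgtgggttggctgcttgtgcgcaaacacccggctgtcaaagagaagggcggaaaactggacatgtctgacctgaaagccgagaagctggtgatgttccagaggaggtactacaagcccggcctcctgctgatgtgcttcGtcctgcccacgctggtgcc
Of all 50-base windows of the transcripts, 4.66% of those of *Scd1* and 4.01% of those of *Scd2* occurred also in transcripts of other genes, *Scd3* and *Scd4* among them, so both could be told apart over most of their length. *Elovl6* shared 4.59% of such windows with other gene models, *Gm11295* among them, *Fads2* shared 0.161% with *Fads3*, and the other 6 genes shared none. How the counting treated shared reads is not given in the sources used here.

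*Scd1*, which makes oleate and palmitoleate, was far lower in the libraries labelled HRD1Alb in both feeding states. It was at 1439 and 2597 CPM in WT fasted, 145 and 378 CPM in HRD1Alb fasted, 2378 and 2170.1 CPM in WT refed and 156 and 241 CPM in HRD1Alb refed liver. All 4 WT libraries were above all 4 libraries labelled HRD1Alb. The fall was 7.72-fold in the fasted state (log2 fold change -2.95 ± 0.508 SE, adjusted p = 0.0478) and 11.4-fold in the refed state (-3.52 ± 0.521, adjusted p = 0.0136). Without replicate 2 of HRD1Alb fasted, the higher of its group, the fasted fall was 14-fold. It was 5.36-fold without replicate 1 of HRD1Alb fasted and 5.39-fold without replicate 2 of WT fasted. *Scd2*, the form of brain and many extrahepatic tissues, was at 3.92 and 6.91, then 6.18 and 6.12, then 5.38 and 5.88, then 11.6 and 7.72 CPM in the same order of groups. Both HRD1Alb refed libraries were above both WT refed libraries, but the log2 difference of 0.78 ± 0.316 did not pass the test (adjusted p = 0.135), and the fasted groups overlapped (0.18 ± 0.316, adjusted p = 0.819). Per kb of transcript, the level of *Scd1* was 415 and 424 times that of *Scd2* in WT fasted and 499 and 417 times in WT refed libraries. In the libraries labelled HRD1Alb this ratio was 26.4 and 69.7 in the fasted and 15.2 and 35.3 in the refed state, below every WT library.

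*Elovl3*, at chr19:46131897-46135694 on the plus strand, fell furthest of the elongases. Its values were 567 and 215 CPM in WT fasted, 15.6 and 16.2 CPM in HRD1Alb fasted, 177 and 64.1 CPM in WT refed and 21.5 and 10.1 CPM in HRD1Alb refed liver. The WT libraries of each state differed among themselves by 2.64-fold and 2.77-fold, replicate 2 being the lower in both, yet no library labelled HRD1Alb reached the lowest WT library. The fall was 24.6-fold in the fasted state (log2 fold change -4.62 ± 0.702, adjusted p = 0.0362) and 7.64-fold in the refed state (-2.93 ± 0.651, adjusted p = 0.0340). The size of the fall rested on single libraries: without replicate 1 of WT fasted the fasted fall was 13.6-fold, and the refed fall was 4.06-fold without replicate 1 of WT refed and 12.0-fold without replicate 1 of HRD1Alb refed. Exons of *Elovl3* overlap those of *Pitx3* on the opposite strand over 10 bases.

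*Elovl6* (chr3:129532355-129638495, plus strand) did not follow *Scd1*. It was at 43.3 and 49.4 CPM in WT fasted, 26.9 and 37.5 CPM in HRD1Alb fasted, 68.2 and 87.9 CPM in WT refed and 111 and 90.5 CPM in HRD1Alb refed liver. In the fasted state both libraries labelled HRD1Alb were below both WT libraries and in the refed state both were above, and neither difference passed the test (log2 -0.52 ± 0.227, adjusted p = 0.280, and 0.37 ± 0.226, adjusted p = 0.278). Per kb, the level of *Scd1* was 41.0 and 64.8 times that of *Elovl6* in WT fasted libraries, 6.63 and 12.4 times in HRD1Alb fasted, 42.9 and 30.4 times in WT refed, and 1.73 and 3.28 times in HRD1Alb refed libraries. *Elovl1* (chr4:118428093-118432953, plus strand), which makes very long chains for ceramides, was at 36.2 and 34.1, then 42.1 and 42.2, then 58.0 and 55.3, then 66.9 and 92.1 CPM in the same order. Both of its genotype differences were upward without passing the test (0.26 ± 0.183, adjusted p = 0.509, fasted, and 0.49 ± 0.183, adjusted p = 0.113, refed). Its exons overlap those of *Cdc20* on the opposite strand over 53 bases, and those of *Elovl6* overlap *Gm35986* over 34 bases. Whether the counting used strand is not stated, so reads in these overlaps cannot be assigned.

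*Elovl2* and *Elovl5*, which lengthen polyunsaturated fatty acids, ran nearly in parallel over the libraries. *Elovl2* (chr13:41182381-41220405, minus strand) was at 1211 and 1602 CPM in WT fasted, 705 and 709 CPM in HRD1Alb fasted, 866 and 822 CPM in WT refed and 367 and 350.3 CPM in HRD1Alb refed liver. *Elovl5* (chr9:77917364-77984519, plus strand) was at 1582 and 1912 CPM in WT fasted, 949 and 869 CPM in HRD1Alb fasted, 863 and 757 CPM in WT refed and 346 and 353 CPM in HRD1Alb refed liver. For both genes the 2 genotypes did not overlap in either feeding state, as for 64.9% of all tested genes fasted and 60.8% refed. In the refed state both fell, *Elovl2* by 2.35-fold (log2 fold change -1.23 ± 0.183, adjusted p = 0.0136) and *Elovl5* by 2.32-fold (-1.21 ± 0.175, adjusted p = 0.0128). In the fasted state the differences were -0.99 ± 0.182 (adjusted p = 0.0516) and -0.94 ± 0.174 (adjusted p = 0.0531), just outside the threshold. The per-kb ratio of *Elovl5* to *Elovl2* stayed between 1.65 and 1.86 in the 4 fasted libraries and between 1.27 and 1.39 in the 4 refed libraries.

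Among the Fads desaturases, *Fads2* passed the test in the refed state and *Fads1* passed in neither, and the difference between the 2 genes was not tested. *Fads2* (chr19:10062765-10101746, minus strand), the first desaturase of the polyunsaturated pathway, was at 356 and 353 CPM in WT fasted, 231 and 284 CPM in HRD1Alb fasted, 281 and 242 CPM in WT refed and 125 and 123 CPM in HRD1Alb refed liver. It fell by 2.12-fold in the refed state (log2 fold change -1.08 ± 0.169, adjusted p = 0.0146), and the fasted difference of -0.46 ± 0.167 did not pass (adjusted p = 0.204). *Fads1* (chr19:10182888-10196877, plus strand), its neighbour on chromosome 19 and the second desaturase of the pathway, was at 407 and 452, then 329.8 and 387, then 306 and 343, then 221 and 280.3 CPM. The libraries labelled HRD1Alb were lower in both states, by -0.26 ± 0.184 (adjusted p = 0.508) and -0.37 ± 0.184 (adjusted p = 0.196), and neither passed. The per-kb ratio of *Fads1* to *Fads2* was 1.04 and 1.17 in WT fasted, 1.30 and 1.24 in HRD1Alb fasted, 0.990 and 1.29 in WT refed, and 1.62 and 2.08 in HRD1Alb refed libraries. *Fads6* (chr11:115279622-115297663, minus strand), a family member whose substrate is not well defined, was at 30.1 and 28.1, then 28.9 and 25.5, then 44.5 and 36.6, then 26.1 and 12.5 CPM. Its fasted groups overlapped (-0.10 ± 0.318, adjusted p = 0.910). Its refed groups did not, at -1.07 ± 0.321 (adjusted p = 0.0708), and the 2 libraries labelled HRD1Alb refed differed by 2.08-fold.

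Counted together, 2 of the 10 genes fell in the fasted state (*Elovl3* and *Scd1*) and none rose, against a background of 1.35% of all tested genes called, 0.921% higher and 0.433% lower. In the refed state 5 of 10 fell (*Elovl2*, *Elovl3*, *Elovl5*, *Fads2* and *Scd1*) and none rose, against 11.9% of all tested genes called, 7.09% higher and 4.84% lower. The median log2 difference of the 10 genes was -0.49 in the fasted and -1.08 in the refed state, where the medians over all tested genes were -0.02 and 0.04. The libraries of the 2 genotypes did not overlap for 8 of 10 genes in the fasted and for all 10 in the refed state, but with 2 libraries a group this held for 64.9% and 60.8% of all tested genes as well. With a correction for transcript length 7 genes were called in the refed state, *Fads6* (-0.90, adjusted p = 0.0257) as lower and *Scd2* (1.03, adjusted p = 0.0379) as higher in addition, when 19.0% of all tested genes were called. In the fasted state 4 genes were called with DESeq2, when 7.64% of all genes were, and also 4 with limma-trend, when 1.86% were, *Elovl2* and *Elovl5* being the added ones. An exact permutation test of 2 libraries against 2 cannot give a two-sided p under 0.333, so each of these calls rests on the spread shared across all 8 libraries.

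**Figure D2:**
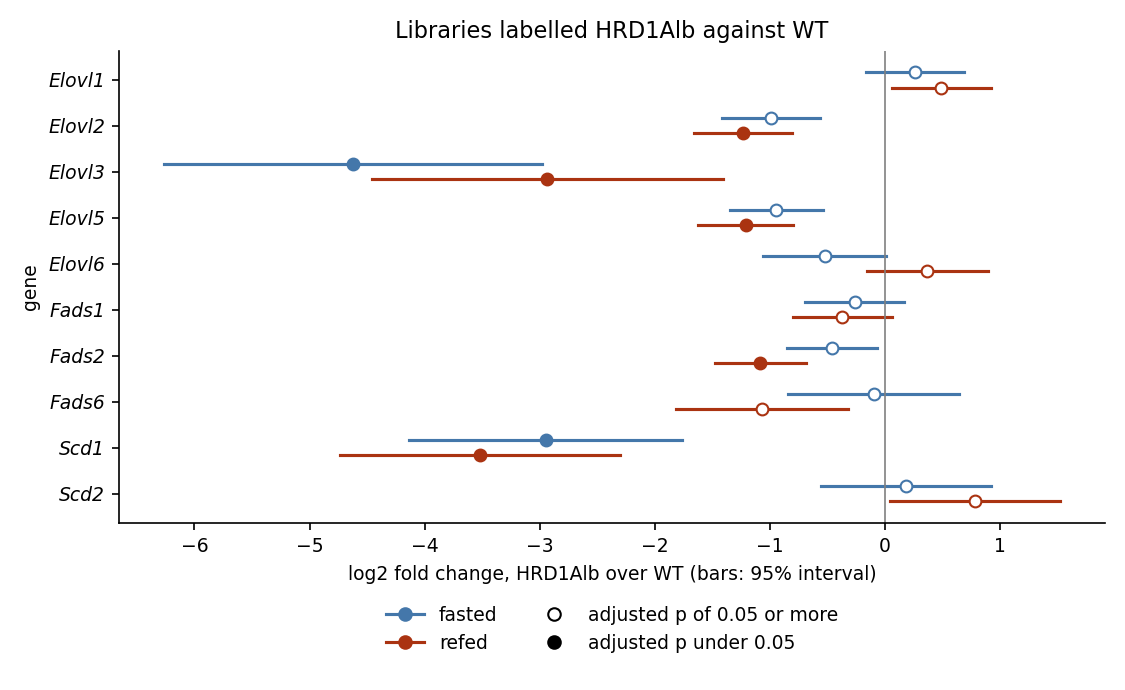
Log2 fold change of each gene in the libraries labelled HRD1Alb over WT, fasted (blue) and refed (red), with 95% intervals as bars and filled points where the adjusted p was under 0.05. *Elovl3* and *Scd1* were called in both states, *Elovl2*, *Elovl5* and *Fads2* in the refed state, and *Elovl1* and *Scd2* lie on the positive side in both.

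Leaving out a library labelled HRD1Alb refed raised the number of calls among all genes, so the counts of members are given beside that share. Without replicate 1 of that group 7 genes were called, the same 5 and also *Fads6* (-1.70, adjusted p = 0.000225) and *Elovl1* (0.70, adjusted p = 0.00106), when 52.8% of all tested genes were. Without replicate 2 there were also 7, when 23.7% of all genes were called. These kept *Scd1* (-3.87, adjusted p = 0.00860), *Elovl2*, *Elovl5* and *Fads2* and added *Fads6* (-0.64, adjusted p = 0.0247), *Fads1* (-0.56, adjusted p = 0.0385) and, as higher, *Scd2* (1.04, adjusted p = 0.0419), while *Elovl3* was lost (-2.50, adjusted p = 0.0505). The fall of *Fads6* thus differed in size between these fits. The fasted count was 5 without replicate 1 or 2 of HRD1Alb refed, *Elovl2*, *Elovl5* and *Fads2* being called in addition, when 21.7% and 21.3% of all genes were. Without replicate 1 or replicate 2 of WT refed, none of the 10 genes was called in the refed state (5 and 6 of 10 at an unadjusted p under 0.05), and of all tested genes only 1 and 2 were. The log2 fold changes stayed at -3.45 and -3.59 for *Scd1* and at -1.20 and -1.28 for *Elovl2* in these 2 fits. The counts at an unadjusted p in this paragraph have no share of all tested genes to be set against. A fit of the 4 refed libraries alone called none of the 10 (7 of 10 at an unadjusted p under 0.05) and 0% of all genes. For the fasted state none of the 10 was called without either WT fasted, either HRD1Alb fasted or either WT refed library, with 4 to 6 of 10 at an unadjusted p under 0.05, when 0% to 0.156% of all genes were called. Directions held in these 8 fits with 1 library left out but for *Scd2* in the fasted state without replicate 1 of WT fasted (-0.17). Scaling by total counts alone, chosen after seeing the data, shifted the median of all genes by 0.383 in the fasted and 0.220 in the refed comparison. Under that scaling *Fads1* (0.12) and *Fads6* (0.28) changed sign in the fasted state while staying below the shift, and 6 genes were called in the refed state, *Elovl1* as higher and the same 5 as lower, when 15.8% of all genes were. The plot of fold changes by setting shows the spread of these fits.

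**Figure D3:**
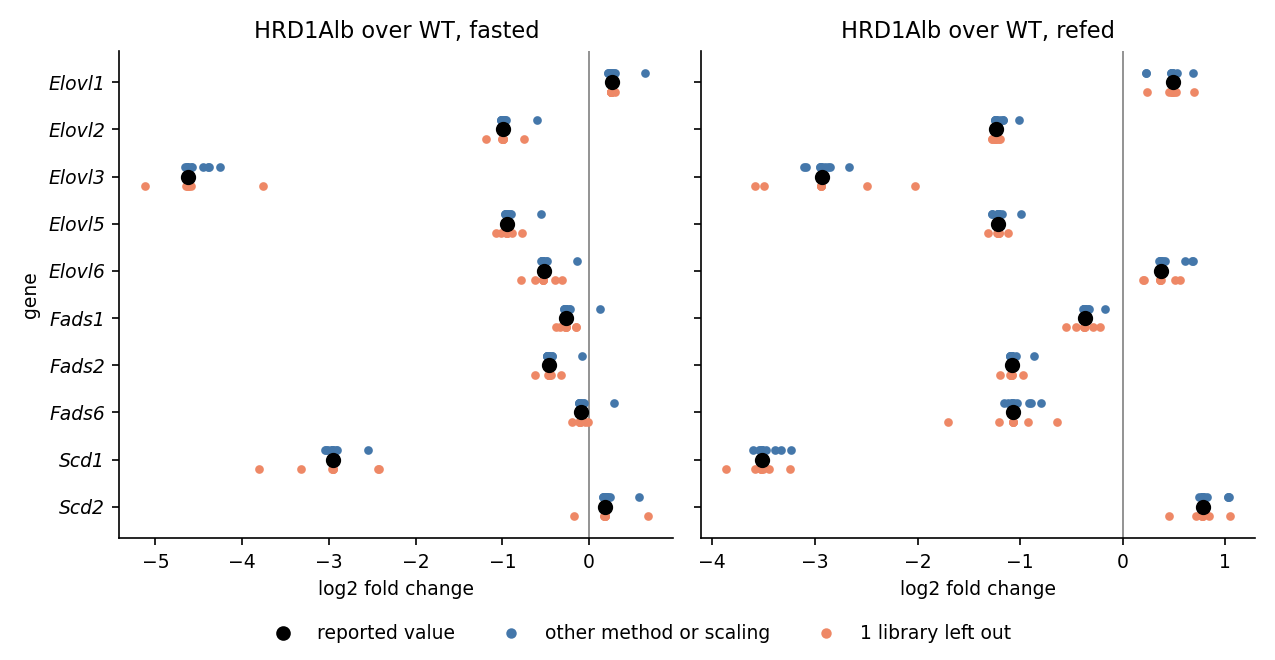
Log2 fold change of HRD1Alb over WT in the fasted (left) and refed (right) state, with the reported value in black, other methods or scalings in blue and fits with 1 library left out in red. *Elovl3* lies at -2.02 or lower and *Scd1* at -2.42 or lower in every fit shown, while *Fads1*, *Fads6* and *Scd2* lie on both sides of 0 in the fasted state.

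Refeeding moved the elongases in opposite directions under the HRD1Alb label, while in WT only *Elovl5* was called. In WT liver *Elovl5* fell by 2.16-fold from the fasted to the refed state (log2 fold change -1.11 ± 0.174, adjusted p = 0.0318) and was the 1 gene of 10 called, against 2.61% of all tested genes (1.2% higher and 1.41% lower). *Elovl2* was at -0.74 ± 0.181 (adjusted p = 0.0917), *Elovl3* at -1.69 ± 0.619 (adjusted p = 0.232), *Elovl1* at 0.69 ± 0.184 (adjusted p = 0.115) and *Elovl6* at 0.75 ± 0.228 (adjusted p = 0.153). In all 4 the fasted and refed libraries did not overlap, but this held for 60.4% of all tested genes as well. *Scd1* differed by 0.17 ± 0.472 (adjusted p = 0.918, 95% interval -0.93 to 1.28), and its WT fasted libraries lay on both sides of the refed ones. *Fads1* (-0.41), *Fads2* (-0.44) and *Fads6* (0.48) did not overlap between states without passing the test, and *Scd2* was at 0.06 ± 0.318 (adjusted p = 0.966).

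In the libraries labelled HRD1Alb, refeeding changed 5 of the 10 genes, against 10.5% of all tested genes called, 5.43% higher and 5.05% lower. *Elovl6* rose 3.13-fold (log2 fold change 1.65 ± 0.232, adjusted p = 0.0106) and *Elovl1* rose 1.89-fold (0.91 ± 0.184, adjusted p = 0.0273). *Elovl5* fell 2.60-fold (-1.38 ± 0.176, adjusted p = 0.00842), *Fads2* fell 2.09-fold (-1.06 ± 0.169, adjusted p = 0.0141) and *Elovl2* fell 1.97-fold (-0.98 ± 0.182, adjusted p = 0.0213). *Scd1* (-0.39 ± 0.473, adjusted p = 0.588) and *Elovl3* (-0.01 ± 0.610, adjusted p = 0.995) overlapped between the states, as did *Fads6* (-0.49 ± 0.319, adjusted p = 0.316). *Fads1* at -0.51 ± 0.184 (adjusted p = 0.112) and *Scd2* at 0.65 ± 0.314 (adjusted p = 0.196) did not overlap and did not pass. The fasted and refed libraries were apart for 8 of 10 genes in WT and 7 of 10 under the HRD1Alb label, where 60.4% and 58.7% of all tested genes were. Median log2 differences were -0.17 and -0.44 for the 10 genes and 0.00132 and 0.0225 for all tested genes.

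**Figure D4:**
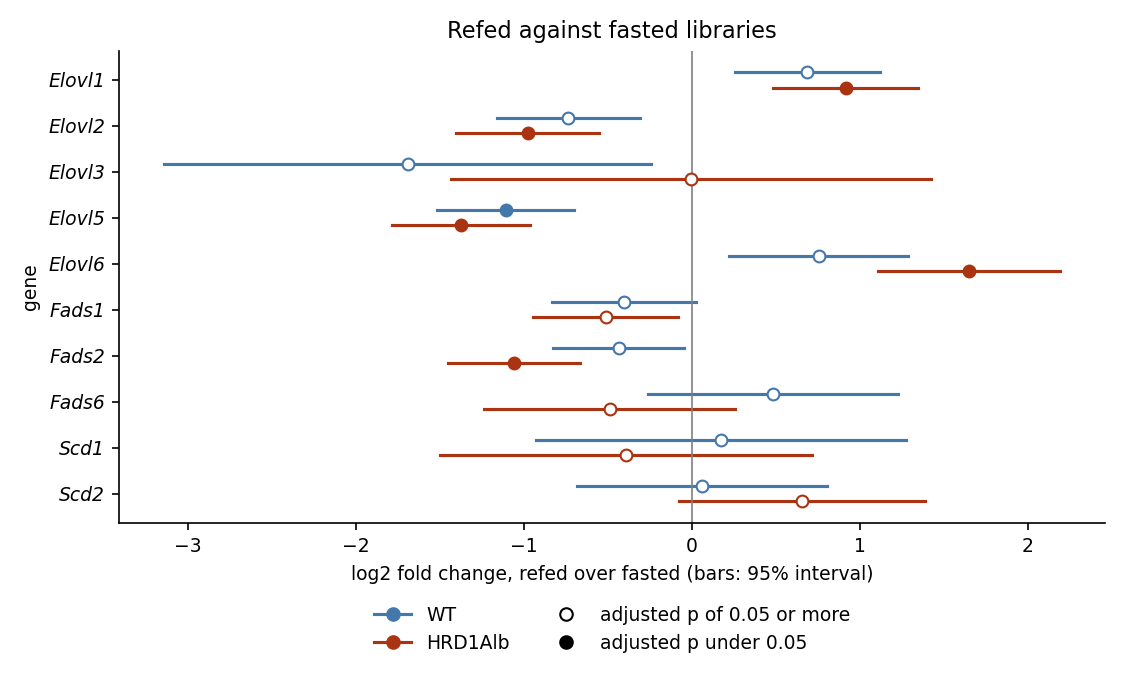
Log2 fold change of each gene in refed over fasted liver, in WT (blue) and in the libraries labelled HRD1Alb (red), with 95% intervals as bars and filled points where the adjusted p was under 0.05. *Elovl1* and *Elovl6* lie to the right of 0 and *Elovl2*, *Elovl5*, *Fads1* and *Fads2* to the left in both genotypes, and the intervals of *Scd1* span 0.

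These calls too depended on single libraries. The WT refeeding count was 0 without either WT fasted, either WT refed or either HRD1Alb fasted library (3 to 6 of 10 at an unadjusted p under 0.05), when 0% to 0.211% of all tested genes were called. It was 5 without replicate 1 or 2 of HRD1Alb refed, when 17.2% and 17.0% of all genes were called, and 4 with DESeq2, when 7.58% were. Under the HRD1Alb label the count was 0 without replicate 1 or 2 of HRD1Alb fasted (6 and 5 of 10 at an unadjusted p under 0.05), when 0.102% and 0.239% of all genes were called, and 3 without replicate 1 or 2 of WT refed, when 3.05% and 3.10% were. It was 6 without replicate 1 or 2 of HRD1Alb refed, both times with the 5 genes named above among them, but 51.4% and 19.7% of all genes were then called. The rise of *Elovl6* lay between 1.43 and 1.90 on the log2 scale in the 8 fits that left out 1 library. Fitted on the 4 libraries labelled HRD1Alb alone, 0 of 10 genes were called by edgeR (5 of 10 at an unadjusted p under 0.05).

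Whether the refeeding response differed between genotypes was tested by the interaction of genotype with feeding. By edgeR 0 of 10 genes passed, as did 0% of all tested genes, and 2 of 10 had an unadjusted p under 0.05. These were *Elovl6*, whose rise was larger under the HRD1Alb label by 0.89 ± 0.321 on the log2 scale (unadjusted p = 0.0256, adjusted p = 0.583), and *Fads2*, whose fall was larger by -0.62 ± 0.236 (unadjusted p = 0.0318, adjusted p = 0.583). DESeq2 and limma-trend also called 0 of 10. Without replicate 1 of HRD1Alb refed, 3 genes passed (*Elovl1*, *Fads2* and *Fads6*), when 33.4% of all tested genes did, and without replicate 2 none did. For *Scd1* the interaction was -0.57 (95% interval -2.13 to 0.996) and for *Elovl3* 1.69 (-0.33 to 3.71), so differences in response of up to several-fold in these genes could not be resolved with 2 libraries a group.

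The make-up of the family changed with the HRD1Alb label as well as its levels. As shares of the summed CPM per kb of the 10 genes, *Scd1* took 17.0% and 26.4% in WT fasted, 36.4% and 37.5% in WT refed, 3.91% and 9.52% in HRD1Alb fasted, and 7.52% and 10.8% in HRD1Alb refed libraries. *Fads1* took 6.43% to 8.26% in the 4 WT libraries and 12.4% to 17.5% in the 4 libraries labelled HRD1Alb. *Elovl1* was at 8.58% and 10.98% in HRD1Alb refed libraries, against 0.927% to 3.04% in the other 6. A share rises when others fall, so these are descriptions of balance and not of each gene's change.

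**Figure D5:**
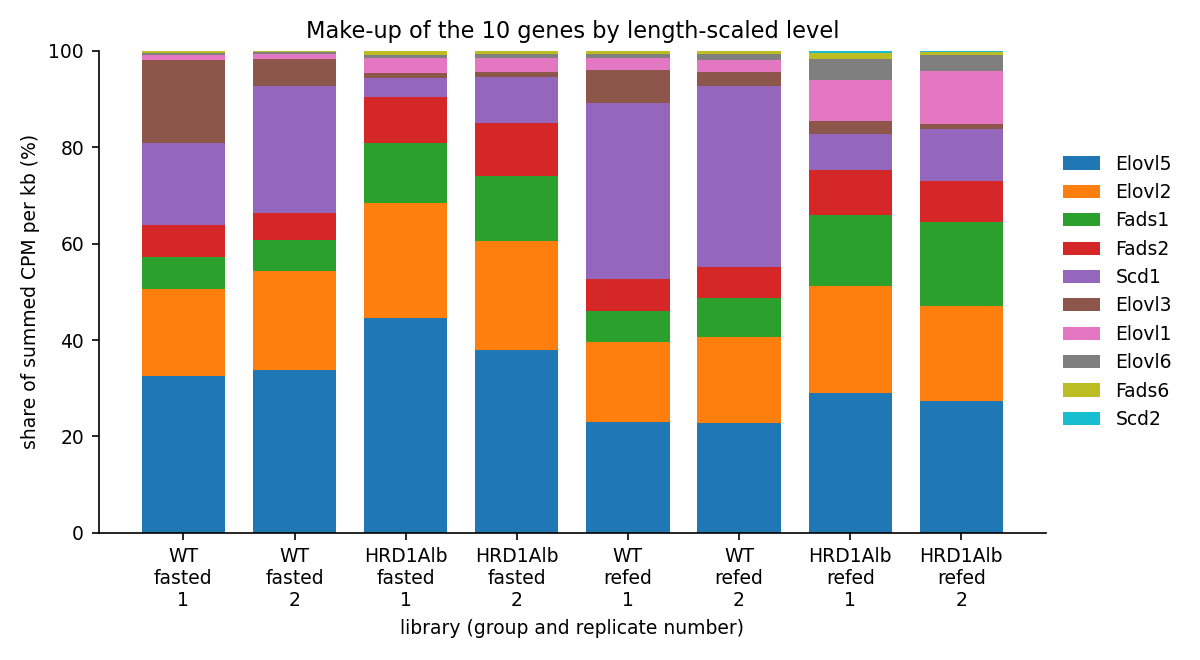
Share of each gene in the summed CPM per kb of the 10 genes, in percent, for each of the 8 libraries. The *Scd1* segment is 17.0% or more in each WT library and 10.8% or less in each library labelled HRD1Alb, and *Elovl5* takes 44.5% and 38.0% in the HRD1Alb fasted libraries.

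Over the 8 libraries the log2 CPM of *Elovl2* and *Elovl5* had a Pearson r of 0.976, given as a description since the libraries fall into 4 groups that both genes share. By the same measure over 8026 genes with a mean of at least 10 CPM, the 3 genes most like *Scd1* were *Celsr1* (r = 0.993), *Oraov1* (0.993) and *Gprc5c* (0.989). *Celsr1* was at 21.8 to 29.4 CPM in the WT libraries and 4.83 to 7.92 CPM in those labelled HRD1Alb. The r does not measure the size of a change. Over the 8 libraries *Oraov1* was at 8.80 to 14.7 CPM and *Gprc5c* at 53.3 to 84.1 CPM, against 145 to 2597 CPM for *Scd1*. Those most like *Elovl3* were *Flii* (0.975), *Slc35e3* (0.963) and *Msh6* (0.960). They were at 48.2 to 70.3, 5.98 to 22.4 and 9.07 to 14.5 CPM, against 10.1 to 567 CPM for *Elovl3*. Those most like *Elovl6* were *Pwp2* (0.971), *Setd8* (0.969) and *Fam40a* (0.967).

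The promoters of *Elovl2* and *Elovl5* are shown because these 2 genes ran in parallel in the libraries. RefSeq promoter windows on GRCm38.p6 (250 bases before to 50 after each start) matched 6 of the 10 genes in 8 entries, for *Elovl1*, *Elovl2*, *Elovl5*, *Elovl6*, *Fads2* and *Fads6*. The bases upstream of the annotated start are given 5′ to 3′ on the strand of the gene, with motif matches in capitals: GC boxes (GGGCGG) in *Elovl2*, at chr13:41220406-41220653 on the minus strand, and an E-box (CACGTG) and CCAAT boxes (read as ATTGG on this strand) in *Elovl5*, at chr9:77917115-77917363 on the plus strand.
Elovl2: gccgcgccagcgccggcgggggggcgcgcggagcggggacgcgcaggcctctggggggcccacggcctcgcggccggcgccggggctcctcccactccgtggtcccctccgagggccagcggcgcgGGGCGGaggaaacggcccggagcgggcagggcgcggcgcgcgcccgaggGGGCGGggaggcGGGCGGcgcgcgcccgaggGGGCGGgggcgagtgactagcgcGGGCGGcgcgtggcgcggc
Elovl5: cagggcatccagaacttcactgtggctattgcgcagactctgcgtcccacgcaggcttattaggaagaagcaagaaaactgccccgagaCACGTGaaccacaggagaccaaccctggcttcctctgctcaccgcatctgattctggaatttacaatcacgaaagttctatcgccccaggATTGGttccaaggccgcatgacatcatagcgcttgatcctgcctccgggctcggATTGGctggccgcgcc
The *Elovl2* window held 5 GC boxes, the farthest 124 bases upstream, and no other motif searched. The *Elovl5* window held the E-box 161 bases upstream and CCAAT boxes 71 and 17 bases upstream, and no GC box. On both strands of 32851 promoter windows of 300 bases, GGGCGG occurred in 35.7%, CCAAT in 37.4%, CACGTG in 7.15% and the nuclear receptor half-site AGGTCA in 16.3%. The SRE-like string TCACNCCAC occurred in 1.24% of all windows and in none of the 8 member windows, which says only that these letters are not there. The half-site was found in the windows of *Elovl6* (193 bases upstream), *Fads6* and 1 of those of *Elovl1*. A match is a string of letters and not a measured binding site.

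Of the 5 other family members, 2 had enough counts to be tested, and 1 of these was called in the refed state. Among all tested genes, 1.35% were called in the fasted and 11.9% in the refed genotype comparison by edgeR, and 7.64% and 22.3% by DESeq2. *Elovl4*, *Scd3* and *Scd4* were between 0 and 0.0988 CPM in every library and were not tested. *Elovl7* was at 0.341 to 0.852 CPM in WT and 1.24 to 2.74 CPM in the libraries labelled HRD1Alb, and it rose in the refed state (log2 fold change 2.51 ± 0.532, adjusted p = 0.0307). *Fads3* was at 7.18 to 17.1 CPM in WT and 10.4 to 33.0 CPM under the HRD1Alb label, and it did not pass (0.40, adjusted p = 0.584, and 0.73, adjusted p = 0.170). The partner enzymes of the elongation cycle (*Hsd17b12*, *Tecr* and the dehydratases listed as *Ptpla*, *Ptplb*, *Ptplad1* and *Ptplad2*) had 0 of 6 called by edgeR in either state, with 1 of 6 at an unadjusted p under 0.05 in each and 1 called by DESeq2 in the fasted state, and limma-trend called 0. *Hsd17b12*, the ketoacyl-CoA reductase of the cycle, was at 214 to 249.9 CPM in WT and 149 to 174 CPM in the libraries labelled HRD1Alb. The desaturases take electrons from cytochrome b5 and its reductases, and of 6 such genes *Cyb5r1*, a reductase, rose in the refed state, from 6.22 and 6.14 CPM in WT to 54.2 and 29.2 CPM (2.75 ± 0.3001, adjusted p = 0.00820).

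Between genotypes, 0.433% of all tested genes fell in the fasted and 4.84% in the refed state by edgeR. In both directions together, DESeq2 called 7.64% of them fasted and 22.3% refed, and limma-trend 1.86% and 12.3%. Of the 4 long-chain acyl-CoA synthetases tested, *Acsl1*, which activates fatty acids in liver, fell in the refed state (1919 and 1446 CPM in WT, 697 and 606 CPM under the HRD1Alb label, log2 fold change -1.37 ± 0.213, adjusted p = 0.0146). Its fasted values were 4515 and 3879 CPM in WT and 1775 and 2058 CPM under the HRD1Alb label. That fasted difference was just outside the threshold (-1.13 ± 0.212, adjusted p = 0.0543). DESeq2 and limma-trend each called 1 of the 4 synthetases in the fasted state. Of 6 genes of peroxisomal chain shortening, *Scp2*, the thiolase and sterol carrier protein, fell in both states, from 3274 and 3496 to 1117 and 1152 CPM fasted (-1.58 ± 0.214, adjusted p = 0.0297) and from 3072 and 2958 to 771 and 1118 CPM refed (-1.67 ± 0.215, adjusted p = 0.0105). Of 10 known regulators of the family, none was called in the fasted state by edgeR, DESeq2 or limma-trend (4 of 10 at an unadjusted p under 0.05), and 3 fell in the refed state. These were *Ppara*, the fatty acid receptor (-1.69 ± 0.178, adjusted p = 0.00817), *Mlxipl*, which encodes ChREBP (-1.36 ± 0.280, adjusted p = 0.0292), and *Scap*, the escort of SREBP (-0.57 ± 0.141, adjusted p = 0.0442). *Srebf1*, which encodes SREBP-1, was at 88.8 and 206 CPM in WT refed and 66.6 and 61.9 CPM in HRD1Alb refed libraries. Its refed difference of -1.20 ± 0.358 did not pass by edgeR (adjusted p = 0.0692) or limma-trend (-1.08, adjusted p = 0.0851) and passed by DESeq2 (-1.21, adjusted p = 0.0106), which called 4 of the 10 regulators. With refeeding in WT, *Srebf1* (2.25 ± 0.370, adjusted p = 0.0336) and *Insig1* (2.91 ± 0.475, adjusted p = 0.0336) rose. *Insig2* (-2.28 ± 0.239, adjusted p = 0.0120) and *Ppara* (-1.12 ± 0.176, adjusted p = 0.0310) fell, while *Scd1* did not pass. In WT refeeding edgeR called 2.61% of all tested genes. Under the HRD1Alb label *Insig2* (-2.06 ± 0.237, adjusted p = 0.00638) and *Ppara* (-2.31 ± 0.182, adjusted p = 0.00346) fell. *Srebf1* (1.20 ± 0.358, adjusted p = 0.0733) and *Insig1* (1.54 ± 0.452, adjusted p = 0.0706) were higher there too, without passing by edgeR. In that comparison DESeq2 called 7 of the 10 regulators and limma-trend 2. Of all tested genes, DESeq2 called 20.4%, limma-trend 10.4% and edgeR 10.5% there. The edgeR interaction of genotype with feeding did not pass for *Srebf1* (adjusted p = 0.601) or *Insig1* (adjusted p = 0.600).

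Several other sets of genes moved with the HRD1Alb label beside *Scd1* and *Elovl3*. For comparison, by edgeR 0.921% of all tested genes rose and 0.433% fell in the fasted state, and 7.09% rose and 4.84% fell in the refed state. In both directions together, DESeq2 called 7.64% of all tested genes fasted and 22.3% refed, and limma-trend 1.86% and 12.3%. Of 11 genes known to be higher in male than in female mouse liver, 7 fell in the fasted and 7 in the refed state, and their summed level was 5537 to 6264 CPM in WT fasted, 1238 to 1914 CPM in HRD1Alb fasted, 4194 to 6072 CPM in WT refed and 1107 to 2247 CPM in HRD1Alb refed libraries. DESeq2 called 11 of these male-biased genes in the fasted and 9 in the refed state, and limma-trend 7 in each. *Serpina4-ps1*, for example, was at 26.7 to 119 CPM in WT and 0.137 to 1.18 CPM in the libraries labelled HRD1Alb. Of 9 female-biased genes tested, 2 rose in each state (*Cyp2b13* and *Hao2*), and the summed level of the 11 listed was 2.54 to 34.8 CPM in WT and 229.6 to 459.8 CPM in the libraries labelled HRD1Alb. DESeq2 called 5 of these 9 in each state, and limma-trend called 4 in the fasted and 3 in the refed state. The 5 genes of the sex chromosomes had 0 calls in either state by edgeR, DESeq2 or limma-trend and none at an unadjusted p under 0.05. The Y-linked gene *Ddx3y* was at 55.2 to 121 CPM and *Xist* at 0.0988 to 0.508 CPM over the 8 libraries. The other Y-linked genes listed were present in every library too, *Eif2s3y* at 60.9 to 88.3, *Kdm5d* at 5.06 to 28.6 and *Uty* at 5.87 to 22.4 CPM. This is the pattern of male tissue in all 8 libraries. Of 6 Kupffer cell and macrophage markers, 2 rose in the fasted and 6 in the refed state, with summed levels of 86.1 to 95.1 CPM in WT fasted, 218 to 300.2 CPM in HRD1Alb fasted, 98.0 to 101 CPM in WT refed and 217 to 428 CPM in HRD1Alb refed libraries. All 6 had an unadjusted p under 0.05 by edgeR in the fasted state, where DESeq2 called 6 and limma-trend 2. The median log2 difference of these markers was 1.55 in the fasted and 1.65 in the refed state. Of 6 stellate cell and fibroblast markers, 3 rose in the refed state and 0 were called in the fasted state by edgeR, DESeq2 or limma-trend (2 at an unadjusted p under 0.05), with a summed level of 163 to 352 CPM in WT and 348 to 480.3 CPM in the libraries labelled HRD1Alb. The part of the sex-biased genes and of these cell types in the results on the elongases and desaturases was not tested, and in whole liver fewer cells of a type and less RNA per cell cannot be told apart.

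The hepatocyte markers, which check the labelled tissue, summed to 127500 to 139200 CPM in WT fasted, 82360 to 83870 CPM in HRD1Alb fasted, 101200 to 108300 CPM in WT refed and 60530 to 98220 CPM in HRD1Alb refed libraries. None of the 6 was called between genotypes by edgeR (2 and 1 at an unadjusted p under 0.05, and 1 by DESeq2 in the refed state), and *Ass1*, a urea cycle gene, was at only 0.563 to 2.67 CPM in every library. Markers of sinusoidal endothelial cells, cholangiocytes and lymphocytes had no call by edgeR or limma-trend in either state, with at most 2 of 5 at an unadjusted p under 0.05. In the refed state 1 lymphocyte marker was called by DESeq2, which called 22.3% of all tested genes there. Adipocyte markers summed to 0.0391 to 0.420 CPM and skin markers to 0 to 0.0726 CPM, with *Lep* at 0 in every library, so the defining markers of fat and skin, tissues in which *Scd1* and *Elovl3* are also known to be expressed, were at or near 0.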

How the data were processed

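Liver RNA of 8 samples was sequenced on an Illumina NextSeq instrument. The authors deposited raw counts, whole numbers listed by gene symbol and not normalized, 1 file per sample. The methods name ERANGE for counting, and the submitters' processing notes name mm10, cutadapt, STAR, HTSeq and DESeq2 without roles. Strand, annotation and the treatment of shared reads are not given in the sources used here. No column was left unused (0).

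Counts were fitted in R 4.3.3 with edgeR 4.0.16: filterByExpr (minimum count 10, total 15), TMM, and 1 quasi-likelihood model of the 4 groups over 8 samples (median prior df 3.38), with Benjamini-Hochberg adjustment over 14328 genes. SE is the absolute log2 fold change over the square root of F. Replicates differed by more than sampling noise (chi-square per df 44.9 to 345), so each counts as a sample. The labels do not say that samples came from separate mice, and p-values measure the spread between these samples, which may be technical.

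The alternatives were RLE scaling, DESeq2 1.42.0, limma-trend (limma 3.58.1), no count filter, at least 10 counts in every sample, the replicate block, a correction for transcript length (90.3% of tested genes had one), the 4 samples of a contrast, each sample left out, and total counts alone. Statistical steps were tested on simulated data. Genes were named by rule: all 10 members, members of preset lists called between genotypes and other family members, and the 3 genes most like *Scd1*, *Elovl3* and *Elovl6*. *Insig1*, *Insig2*, *Srebf1*, *Ddx3y*, *Lep*, *Ass1*, *Hsd17b12*, *Cyp7b1*, *Cyp2b9*, *Cyp2a4*, *Hsd3b5*, *Mup20*, *Slco1a1* and *Nudt7* were chosen after their values were seen. Members and lists were chosen with earlier results of these data known. Positions and lengths are from GENCODE M21 on GRCm38, and promoters from RefSeq. Sequences were aligned with Biopython 1.88 in Python 3.11.15, and plots made with matplotlib 3.10.9.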

Additional observations from a re-analysis of the deposited data

How the results depend on the processing

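With 2 libraries a group, calls rested on the spread pooled over all 8, and the values below give how far they moved. Apart from fits with 1 library left out, single-gene values kept direction and side of the threshold in 446 cases, gained it in 31, lost it in 10 and reversed in 3, all 3 under total counts alone: *Fads1* (0.12) and *Fads6* (0.28) in the fasted genotype comparison and *Elovl3* (0.0284) in HRD1Alb refeeding. The cause was not tested, but that scaling shifted the median of all genes by 0.383 (fasted genotype), 0.220 (refed genotype), 0.148 (WT refeeding) and -0.0108 (HRD1Alb refeeding), and moved the share of higher calls among all calls to 94.7% in the fasted genotype comparison (840 of 887 calls) and 87.5% in the refed one (1975 of 2258).

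In the fasted genotype comparison 4 genes were called, in place of 2, under DESeq2 (7.64% of all tested genes called), limma-trend (1.86%), no count filter (1.79%), the length correction with (4.19%) and without the block (5.45%), and the 4 samples alone (14.6%). In the refed genotype comparison 8 were called, in place of 5, under the length correction with the block (18.5% of all genes), and 0 with the 4 samples alone (0%). For WT refeeding 4 were called, in place of 1, under DESeq2 (7.58%), the length correction with the block (5.40%) and the 4 samples alone (14%), and 3 under the length correction (5.95%). For HRD1Alb refeeding 0 were called, in place of 5, with the 4 samples alone. In those fits of 4 samples 2033 genes were called for the fasted genotype, 1882 for WT refeeding, and 0 for the other comparisons. Same-numbered samples deviated together with r from 0.0161 to 0.179 over 6 pairs of groups, so the numbers were not taken to pair them. The replicate block gave 2, 6, 1, 5 and 0 calls, with *Fads6* added in the refed genotype comparison, and changed no other call. No fit of the interaction on 4 samples exists.

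With 1 library left out, the number of genes called ranged from 0 to 5 (fasted genotype), 0 to 7 (refed genotype), 0 to 5 (WT refeeding), 0 to 6 (HRD1Alb refeeding) and 0 to 3 (interaction). Such a fit assumes that the lone sample of a group varies like the others. With replicate 1 of HRD1Alb refed left out, 21.7%, 52.8%, 17.2%, 51.4% and 33.4% of all tested genes were called in these comparisons. Values that changed sign between these fits were *Scd2* in the fasted genotype comparison (-0.17 to 0.68), *Scd1* (-0.19 to 0.69) and *Scd2* (-0.30 to 0.55) in WT refeeding, *Elovl3* (-0.66 to 0.44) and *Scd1* (-0.93 to 0.45) in HRD1Alb refeeding, and *Elovl1* (-0.0220 to 0.438, the latter called), *Fads1* (-0.292 to 0.0480) and *Scd1* (-1.10 to 0.28) in the interaction.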

Other observations

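Within WT liver, the 2 libraries of each feeding state differed in several genes in the same direction as *Elovl3*, a comparison of single libraries with no test that was noticed after seeing the data. Replicate 2 was lower than replicate 1 in *Elovl3* (215 against 567 CPM fasted, 64.1 against 177 CPM refed) and in *Cyp7b1*, an oxysterol hydroxylase higher in male liver (45.4 against 337 CPM fasted, 96.5 against 315 CPM refed). Replicate 2 was higher in *Cyp2b9* (21.8 against 0.698 CPM fasted, 11.8 against 0.444 CPM refed) and in *Cyp2a4* (5.86 against 0.574 CPM fasted, 3.47 against 0.321 CPM refed), both higher in female liver. The other genes of these lists did not all follow. Replicate 2 was the lower for 8 of 11 male-biased genes in each state, but the higher for *Hsd3b5* in both (17.0 against 10.2 CPM fasted, 103 against 99.2 CPM refed), for *Mup20* and *Slco1a1* fasted, and for *Serpina4-ps1* and *Nudt7* refed. Of 11 female-biased genes it was the higher for 8 and the lower for 2 in each state. *Scd1* did not follow, at 2597 against 1439 CPM fasted and 2170.1 against 2378 CPM refed. The numbers do not show that the 2 libraries numbered 2 come from related mice.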
